A study of Mus musculus with 2 samples.

Results

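The genes described here are 38 named cell cycle genes, 17 of the G1/S transition and S phase and 21 of G2 and mitosis, read in 2 tumour sections. The list was given by gene symbol, by a rule that uses no measured value, at a time when earlier results of these data were known. Of the 38 genes, 35 are among the 19465 genes of the count matrices, 16 in the S group and 19 in the G2/M group. Rrm2, Ccnb1 and Cdc20 are not among the genes of the matrices, so they have no levels here and enter only the promoter search.

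The sections come from B16.F10 tumours, a transplanted pigmented mouse melanoma line, and each section is 1 library from 1 tumour. The WT library came from a host labelled Csnk2bfl/fl, which carries the floxed gene for the regulatory subunit of the kinase CK2 and no labelled Cre. The KO library came from a Foxp3-Cre × CK2b-fl/fl host, in which Foxp3, the gene that defines regulatory T cells, drives the recombinase. The hosts were 8 to 16 weeks old, were not treated, and gave their tumours on day 15. Sections of 10 µm were read with Visium CytAssist, a probe-based method in which each capture spot is a small region that can hold several cells, and values are unique molecular identifiers (UMIs) per gene and spot. In the KO host only Foxp3-expressing cells are meant to lose Csnk2b, so the dividing tumour cells have the same genotype in both sections. Csnk2b summed over the section, at 392 counts per 1000000 UMIs (CPM) in both, does not check the deletion.

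Cell division runs through G1, S phase, G2 and mitosis. Cyclins D and E with their kinases release E2F factors, which drive the genes that license and fire replication origins. Late in the cycle a second wave of genes, held down in resting cells by the DREAM complex and raised by MYB and FOXM1 with NF-Y, supplies cyclins A and B, Cdk1, mitotic kinases, spindle motors and centromere proteins. In melanoma, transcripts of both waves are common readouts of proliferation.

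The promoters of the members were searched for short sequence elements, among them those of the S and G2/M waves, and a few promoters are printed. RefSeq start-site windows of GRCm38.p6 matched 30 of the 38 genes by symbol, 13 of the S group and 17 of the G2/M group, and the 250 bases before each start were searched on both strands. The cell cycle homology region (CHR, searched as TTTGAA and its variants, which are TTCGAA plus also TTTGGA), the element bound by DREAM and MYB-FOXM1 complexes, was found in 10 of 17 G2/M promoters (58.8%), 3 of 13 S promoters (23.1%) and 28.4% of all 32851 promoter windows. At least 2 such matches were found in 5 of the 17 G2/M promoters, in 0 of the S promoters and in 5.51% of all. The NF-Y box CCAAT was found in 15 of 17 G2/M promoters, 8 of 13 S promoters and 33.85% of all. E2F sites (searched as TTTGGCGC, then TTTCCCGC, then TTTCGCGC, then TTTGCCGC, then TTCGCGCC, which can overlap each other on the 2 strands) were found in 4 of 13 S promoters, in 1 of 17 G2/M promoters and in 2.17% of all. The GC box GGGCGG was found in 10 of 13 S and 12 of 17 G2/M promoters and in 32.7% of all. A match is a description of the letters and not a site shown to be used.

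The windows below hold 150 bases that end just before the annotated gene, 5′ to 3′ on the gene's strand, with CHR, CCAAT and E2F matches in capitals. Mki67 and Cdk1 are shown because their levels differ in opposite directions between the sections, Ccnb2 as a G2/M gene that differs in the direction of Mki67, and Mcm6 as an S-phase gene with E2F matches. They lie on the minus strand at chr7:135716451-135716600 (Mki67), chr10:69352913-69353062 (Cdk1), chr9:70421555-70421704 (Ccnb2) and chr1:128359706-128359855 (Mcm6).
Mki67: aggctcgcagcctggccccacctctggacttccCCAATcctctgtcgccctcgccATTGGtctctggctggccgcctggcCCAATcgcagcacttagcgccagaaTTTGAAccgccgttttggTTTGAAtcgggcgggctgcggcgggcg
Cdk1: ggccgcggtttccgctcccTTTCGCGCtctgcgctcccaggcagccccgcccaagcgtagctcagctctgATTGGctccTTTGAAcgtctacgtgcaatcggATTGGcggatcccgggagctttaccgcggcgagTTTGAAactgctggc
Ccnb2: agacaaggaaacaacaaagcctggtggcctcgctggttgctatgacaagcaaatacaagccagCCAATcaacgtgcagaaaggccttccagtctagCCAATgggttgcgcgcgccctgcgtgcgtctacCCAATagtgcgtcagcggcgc
Mcm6: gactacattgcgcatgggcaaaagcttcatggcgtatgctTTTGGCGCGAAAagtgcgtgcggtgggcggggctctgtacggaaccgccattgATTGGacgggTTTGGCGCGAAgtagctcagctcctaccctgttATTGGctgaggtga
Mki67 and Cdk1 each hold 2 copies of TTTGAA, with 3 CCAAT matches in the Mki67 window and 2 in that of Cdk1. The Cdk1 window also holds 1 E2F match, and that of Mki67 holds 0. The Ccnb2 window holds 3 CCAAT matches, and the Mcm6 window holds 5 overlapping E2F matches and 2 of CCAAT.

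The WT section had 3066 spots and 88735936 UMIs and the KO section 2746 spots and 94422680 UMIs. All 15 measured melanocytic marker genes of 16 listed had UMIs in both sections, and their sum was 47848 CPM in WT and 55393 CPM in KO. Spots at or above the median melanocytic share over both sections (5.15% of UMIs) are called melanoma-dense here, 1280 of the WT spots (41.7%) and 1626 of the KO spots (59.2%). Summed fibroblast markers stood at 13011 CPM in WT and 1609 CPM in KO, T cell markers at 79.98 and 213.8 CPM and erythroid markers at 325 and 2199 CPM, with every measured gene of these lists above 0. In melanoma-dense spots the fibroblast sum was 716 CPM in WT and 257 CPM in KO, and the hypoxia list stood at 1079 and 2068 CPM. The part of these differences in the results below was not tested. Of the spot barcodes, 2138 occur in both sections, as they name positions of the same grid.

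With 1 section per genotype no difference between the sections has a replicate check, and no p-value is given. A ratio is the KO over the WT level in CPM, with its 95% exact binomial interval, which covers counting error only. A gene is called higher at a ratio of at least 5/4 and lower at a ratio of at most 4/5, among genes with at least 500 UMIs over the spots compared. Of the 35 members 34 reached that number. Pcna, the sliding clamp of DNA polymerase, gave only 95 UMIs in WT and 138 in KO, where probes for genes of other organs gave medians of 18 and 40 UMIs. Fewer dividing cells and less transcript per dividing cell cannot be told apart in these sums.

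Over all spots 8 of the 34 members were higher in the KO section, where 19.5% of all genes tested were, and 6 were lower, where 20.9% of all genes were. Together 14 of 34 members (41.2%) were called, and 40.5% of all genes, so the members differed about as often as genes at large. Over melanoma-dense spots 4 members were higher (17.5% of all genes) and 6 lower (17.4% of all genes), a share of 29.4% against 35.0%. The S and G2/M groups did not separate. The median log2 ratio was 0.06 for S genes and 0.14 for G2/M genes over all spots, beside 0.01 for all genes, and -0.004 and 0.04 over melanoma-dense spots. The scale decides the sign of these medians. TMM factors lower every log2 ratio over all spots by 0.22, which brought the medians to -0.15 for S and -0.08 for G2/M genes. The counts went to 2 higher (6.86% of all genes) and 10 lower (38.3% of all genes). Summed CPM of the S group was 2323 in WT and 2301 in KO, and of the G2/M group 2985 and 3060.

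**Figure D1:**
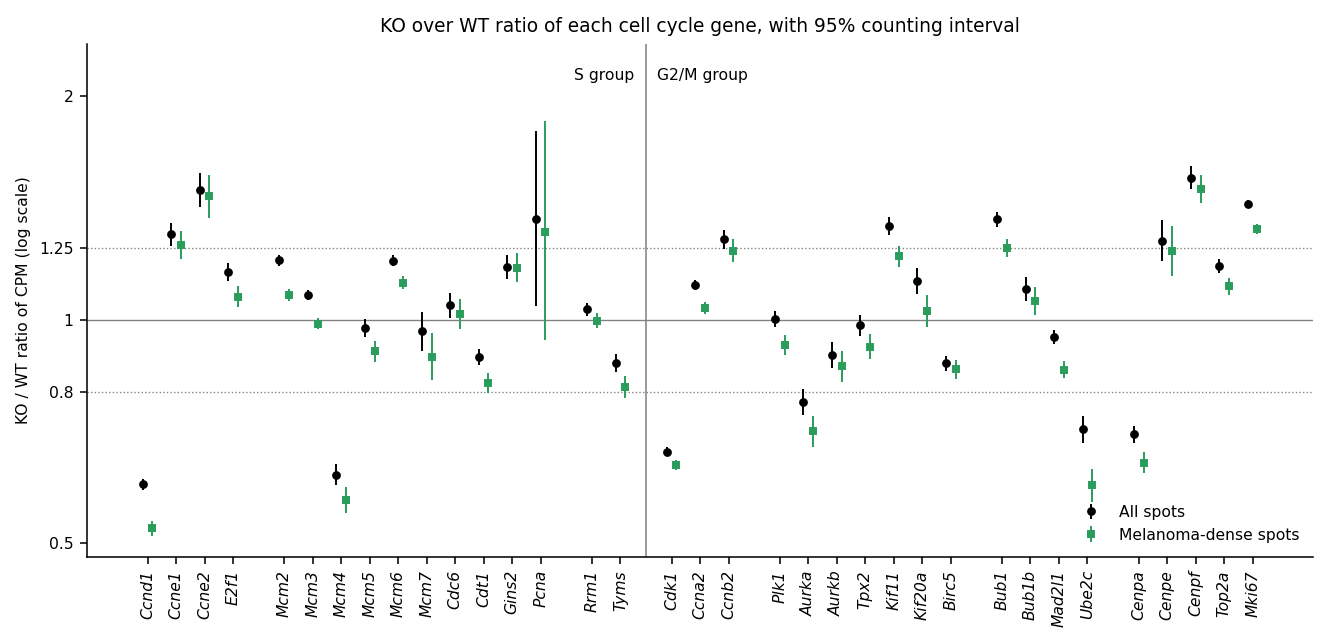
KO over WT ratio of CPM for each measured member, on a log scale, grouped by role, over all spots (black circles) and melanoma-dense spots (green squares), with bars for the 95% counting interval and dotted lines at the ratios used for a call. Members of both phase groups lie on both sides of 1, from Ccnd1 at 0.600 to Cenpf at 1.55 over all spots.

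The G1/S regulators held 3 of the 4 S genes that were called. Ccnd1, cyclin D1, which links growth signals to the cycle (ENSMUSG00000070348, chr7:144929931-144939831), stood at 386 CPM in WT and 232 CPM in KO over all spots, a ratio of 0.600 (0.590 to 0.611). In melanoma-dense spots the 4 quadrants of the WT section held 425, 349.6, 336 and 439 CPM and those of the KO section 182, 201, 215 and 219 CPM. The quadrants did not overlap, and the ratio there was 0.524 (0.512 to 0.535).

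The other G1/S regulators lay on the other side of 1. Ccne1, cyclin E1, which drives entry into S phase with Cdk2, was 1.30-fold higher in KO (1.26 to 1.35), at 58.3 CPM in WT and 75.9 CPM in KO. Ccne2, cyclin E2, was 1.49-fold higher (1.42 to 1.58), from 2215 UMIs in WT and 3520 in KO. Both cyclins E were also called over melanoma-dense spots, at 1.26-fold and 1.465-fold, and their quadrants of melanoma-dense spots did not overlap between sections. E2f1, the activator of the G1/S genes, had a ratio of 1.16 (1.13 to 1.19), below the ratio used for a call, and TMM factors brought its log2 ratio from 0.21 to -0.005.

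Of the licensing and replication genes 1 of 9 was called. Mcm4, a subunit of the hexameric MCM helicase that is loaded on origins, stood at 101.6 CPM in WT and 62.8 CPM in KO, a ratio of 0.619 (0.599 to 0.640). Its quadrants held 83.8 to 114.6 CPM in WT and 58.7 to 68.1 CPM in KO and did not overlap. The other helicase subunits did not share its ratio. Mcm2 had a ratio of 1.20 (1.18 to 1.22), Mcm6 1.20 (1.18 to 1.22), Mcm3 1.08 (1.06 to 1.10), Mcm5 0.974 (0.948 to 1.001) and Mcm7 0.964 (0.907 to 1.03). Cdc6 and Cdt1, which load the helicase, had ratios of 1.04 (1.01 to 1.09) and 0.891 (0.870 to 0.912), and Gins2, a part of the active helicase, 1.18 (1.14 to 1.22). Each of these 8 genes had overlapping quadrants over all spots and over melanoma-dense spots.

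The measured nucleotide genes lay near 1. Rrm1, the large subunit of ribonucleotide reductase, had a ratio of 1.03 (1.01 to 1.05) and Tyms, thymidylate synthase, 0.874 (0.849 to 0.900). Neither was called over all or over melanoma-dense spots.

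Among the mitotic cyclins and their kinase, Cdk1 was lower and Ccnb2 higher. Cdk1, the kinase that drives entry into mitosis, stood at 650.3 CPM in WT and 432 CPM in KO, a ratio of 0.665 (0.656 to 0.673). Ccnb2, cyclin B2, a partner of Cdk1, stood at 88.3 and 113 CPM, 1.28-fold higher in KO (1.246 to 1.32), and was just under the ratio for a call in melanoma-dense spots, at 1.24. Ccna2, cyclin A2, the partner of Cdk2 and then Cdk1, had a ratio of 1.11 (1.10 to 1.13), and 1.04 in melanoma-dense spots.

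Mitotic kinases and spindle genes were mixed. Aurka, the centrosomal Aurora kinase, stood at 60.3 CPM in WT and 46.8 CPM in KO, a ratio of 0.776 (0.745 to 0.807) and 0.708 in melanoma-dense spots, where quadrants did not overlap. Kif11, the motor that separates spindle poles, was 1.34-fold higher (1.30 to 1.38) over all spots and 1.22-fold over melanoma-dense spots. The remaining 5 genes of this role were not called. Plk1, a kinase of mitotic entry and exit, had a ratio of 1.002 (0.977 to 1.03) and Tpx2, an activator of Aurka, 0.982 (0.951 to 1.01). Aurkb and Birc5, partners in the chromosomal passenger complex, had ratios of 0.897 and 0.874, and the cytokinesis motor Kif20a had 1.13.

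In the checkpoint and anaphase group Bub1 and Ube2c went opposite ways. Bub1, a kinase of the spindle checkpoint, stood at 134 CPM in WT and 183 CPM in KO, 1.37-fold higher (1.33 to 1.398), and just under the ratio for a call in melanoma-dense spots, at 1.2485. Ube2c, the ubiquitin-conjugating enzyme that works with the anaphase-promoting complex, stood at 57.5 and 40.9 CPM, a ratio of 0.712 (0.682 to 0.742) and 0.598 in melanoma-dense spots. In the remaining spots, those that are not melanoma-dense, Ube2c had a ratio of 0.987 (0.916 to 1.06). The checkpoint genes Bub1b and Mad2l1 had ratios of 1.10 and 0.947.

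The centromere and chromatin group held the most higher genes, 3 of 5 over all spots. Cenpf, a large kinetochore protein of G2 and mitosis, stood at 53.4 CPM in WT and 82.9 CPM in KO, 1.55-fold higher (1.497 to 1.61), the highest ratio of any member that reached 500 UMIs. Its quadrants held 39.97 to 60.99 CPM in WT and 61.3 to 92.3 CPM in KO. Mki67, which encodes Ki-67, was 1.43-fold higher (1.41 to 1.45). Cenpe, a kinetochore motor, was 1.28-fold higher (1.20 to 1.36) from 1718 and 2335 UMIs. Cenpa, the histone H3 variant of centromeres, was on the other side at 143 CPM in WT and 100.4 CPM in KO, a ratio of 0.701 (0.682 to 0.720), with quadrants that did not overlap. Top2a, the topoisomerase that untangles chromosomes, had a ratio of 1.18 (1.16 to 1.21).

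Over all spots the quadrants of the 2 sections did not overlap for 5 of 35 members (Ccnd1, Mcm4, Cdk1, Cenpa and Cenpf), against 26.9% of all genes. Over melanoma-dense spots this held for 10 members, against 39.5% of all genes, with Ccne1, Ccne2, Aurka, Ube2c and Mki67 added. TMM and median-of-ratios factors left each of the 14 members called over all spots on its side of 1, and under both only Ccne2 and Cenpf were still called higher. Ratios of uncalled members between 1 and 1.16, such as those of Mcm3, Ccna2 and Bub1b, were below 1 under both.

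Mki67, the proliferation marker, and Cdk1 lay on opposite sides. Mki67 (ENSMUSG00000031004, chr7:135689784-135716450) gave 36263 UMIs in WT and 55227 in KO, or 409 and 585 CPM. Cdk1 (ENSMUSG00000019942, chr10:69335146-69352912) gave 57705 UMIs in WT and 40803 in KO. The ratio of Mki67 to Cdk1 UMIs needs no scaling between libraries. It was 0.628 in WT and 1.35 in KO, a 2.15-fold difference (2.11 to 2.19), and 0.670 and 1.39 in melanoma-dense spots, a 2.08-fold difference (2.03 to 2.12). This lay within the spread of the G2/M members. Over all spots their highest KO over WT ratio, that of Cenpf, was 2.34-fold their lowest, that of Cdk1.

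The difference was present in each way that melanoma-dense spots were cut. The pair was picked with its opposite directions known. Each section was divided 4 ways into 4 sets of spots, by quadrant, by hypoxia list, by distance from the edge and by depth. In all 16 pairs of sets with the same number Mki67 was higher and Cdk1 lower in KO by CPM. Quadrants and the quartiles by hypoxia and depth were cut in each section by itself, so these pairs are not matched between sections. With TMM factors the log2 ratio of Mki67 over melanoma-dense spots was 0.18, against 0.40 by CPM. The 16 pairs were not rescaled. Across the 16 sets the UMI ratio ran from 0.605 to 0.716 in WT and from 1.36 to 1.45 in KO, without overlap. Cdk1 ran from 633 to 757 CPM in WT and from 375 to 508 CPM in KO. Mki67 overlapped between sets that were not paired, at 414 to 528 CPM in WT and 511 to 694 CPM in KO. In the remaining spots Mki67 was 1.43-fold higher and Cdk1 had a ratio of 0.656, as far apart as in melanoma-dense spots.

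Between the least and the most hypoxic quartile of each section the pair went the same way, though not at every step in WT. From the least to the most hypoxic quartile of melanoma-dense spots Mki67 stood at 528, 471, 444 and 416 CPM in WT and at 694, 653, 607 and 511 CPM in KO. Cdk1 stood at 752, 688, 696 and 668 CPM in WT and at 508, 461, 429 and 375 CPM in KO. Both were lowest in the most hypoxic quartile of each section. Why the sections differ in opposite directions for these genes was not tested. Host, tumour and library cannot be told apart with 1 section per genotype.

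**Figure D2:**
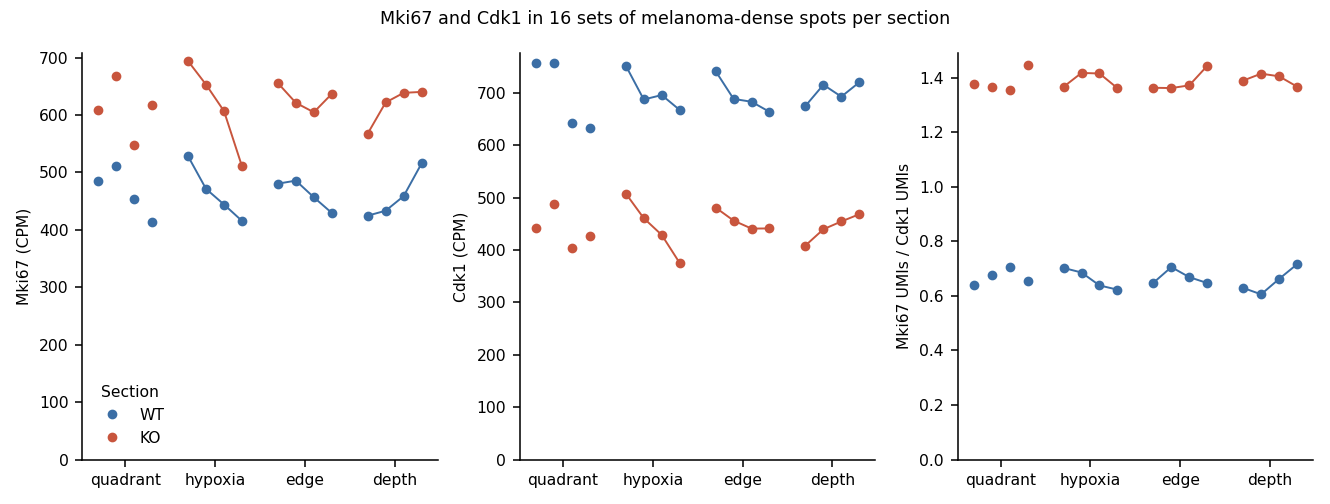
Levels of Mki67 and Cdk1 in CPM and the ratio of their UMIs in 16 sets of melanoma-dense spots per section: 4 quadrants, 4 quartiles by hypoxia list (lowest first), 4 bins by steps from the edge (from 1, 3, 6 and 10 steps) and 4 quartiles by UMIs per spot (shallowest first). The UMI ratio of the WT sets (blue) stays at 0.605 to 0.716 and that of the KO sets (red) at 1.36 to 1.45.

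Melanoma-dense spots were ranked by their UMI share of 15 hypoxia genes, such as Car9, Bnip3 and Vegfa, and the upper quartile (hypoxic) was compared with the lower quartile (oxygenated) within each section. Members were lower in the hypoxic quartile of both sections. In WT 33 of 34 members had ratios below 1, and 19 were called lower, where 7.52% of all genes were. None was called higher, where 7.57% of all genes were. In KO 33 of 34 members were below 1 and 28 were called lower (15.0% of all genes) and none higher (8.89% of all genes). The median log2 ratio was -0.34 for S and -0.35 for G2/M genes in WT and -0.54 and -0.44 in KO, beside -0.04 and -0.06 for all genes.

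The phase sums show the same order by quartile. From oxygenated to hypoxic the S sum stood at 2746, 2546, 2450.0 and 2260 CPM in WT and at 2728, 2423, 2178 and 1869 CPM in KO. The G2/M sum went from 3710 to 2958 CPM in WT and from 3582 to 2673 CPM in KO. The sections began at similar sums in their oxygenated quartiles and were further apart in the hypoxic ones, where the hypoxia list itself stood at 2667 CPM in WT and 4197 CPM in KO. Quartiles of the sections are therefore not matched in hypoxia. Single abundant genes also weigh heavily in these sums, so their gaps are not those of a phase group as a whole. In the hypoxic quartiles of WT and KO, Cdk1 stood at 668 and 375 CPM and Ccnd1 at 391 and 162 CPM. Mki67 went the other way, at 416 and 511 CPM.

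Depth moved with this result. Hypoxic spots had a median of 27110 UMIs against 50705 in WT, and 33678 against 51445 in KO. Among melanoma-dense spots of middle depth, an alternative chosen after the data were seen, the KO values held with medians of -0.51 for S and -0.38 for G2/M genes and 27 of 32 members called lower (12.6% of all genes). In WT the medians were -0.22 and -0.14, with 3 of 31 members called lower (2.84% of all genes). Depth still differed among these spots, with medians of 33102 UMIs in hypoxic and 38428 in oxygenated spots of WT. In KO these were 41561 and 43616. In KO the T cell sum was 186 CPM in the oxygenated and 87.8 CPM in the hypoxic quartile and the erythroid sum 1861 and 499 CPM, while in WT the fibroblast sum was 412 and 1197 CPM. Their part in the result was not tested.

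Among S genes the ratio was lowest for Cdc6 in both sections. It had a hypoxic over oxygenated ratio of 0.713 (0.637 to 0.797) in WT and 0.585 (0.532 to 0.643) in KO. Mcm2 stood at 375 and 272 CPM in the oxygenated and hypoxic quartiles of WT and at 407 and 279.7 CPM in those of KO. The licensing and replication genes were all called lower in KO, 9 of 9, and 6 of 9 were in WT. In the G2/M group Plk1 had ratios of 0.709 (0.661 to 0.760) in WT and 0.576 (0.540 to 0.614) in KO, and Kif11 had 0.665 in WT and 0.730 in KO.

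Ccnd1 and Bub1 stood apart from the other members. In WT, Ccnd1 stood at 347, 389, 412 and 391 CPM from the least to the most hypoxic quartile, a hypoxic over oxygenated ratio of 1.13 (1.08 to 1.18). In KO it stood at 233, 206, 182 and 162 CPM, a ratio of 0.695 (0.660 to 0.731). Among spots of middle depth the WT ratio was 0.965 (0.911 to 1.02) and the KO ratio 0.688 (0.642 to 0.738). Bub1 had nearly level quartiles, with ratios of 0.936 (0.877 to 0.998) in WT and 1.06 (1.005 to 1.11) in KO, and was the only member above 1 in KO among those with 500 UMIs.

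**Figure D3:**
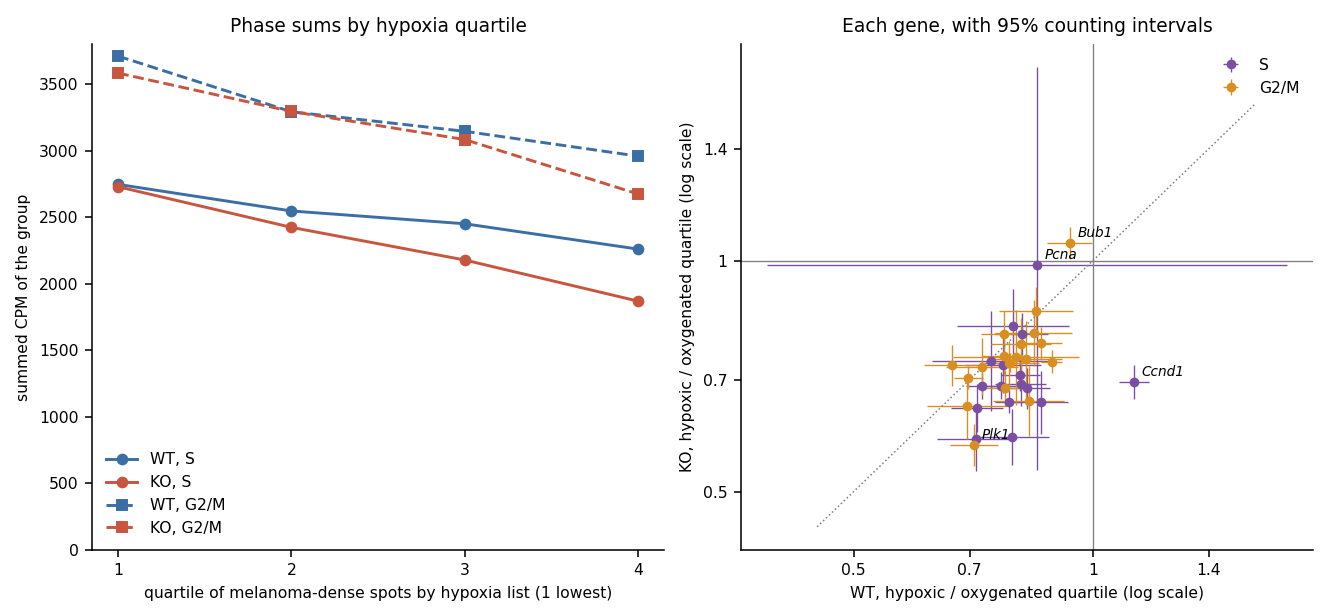
Left, summed CPM of the S and G2/M groups in the 4 quartiles of melanoma-dense spots ordered by the hypoxia list, for WT (blue) and KO (red); right, hypoxic over oxygenated ratio of each member in WT and KO on log scales, with 95% counting intervals and a dotted line of equality. Most members lie below 1 in both sections, with Ccnd1 at 1.13 in WT and 0.695 in KO and Bub1 at 0.936 and 1.06.

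The edge profile was flat by comparison. Melanoma-dense spots within 2 grid steps of the tissue border or the capture frame (rim) were compared with those at least 6 steps inside (inner), with 574 rim and 352 inner spots in WT and 286 and 995 in KO. The median log2 inner over rim ratio was -0.05 for S and -0.07 for G2/M genes in WT and -0.03 and -0.08 in KO, beside -0.003 and -0.03 for all genes. In WT none of 34 members was called in either direction, where 1.37% of all genes were called higher and 1.49% lower. In KO 2 members were called lower (6.90% of all genes) and none higher (2.24% of all genes).

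Those 2 genes were Ccnd1 and Mcm4. Ccnd1 stood at 242, 221, 199 and 166 CPM from the outermost to the innermost bin of the KO section, an inner over rim ratio of 0.752 (0.719 to 0.787), and at 385, 357, 378 and 451 CPM in WT, a ratio of 1.05 (1.01 to 1.08). Mcm4 stood at 73.7, 64.6, 60.3 and 55.3 CPM in KO and at 113.6, 107, 103.8 and 93.3 CPM in WT, ratios of 0.784 and 0.882. The hypoxia list stood at 1756 CPM in the outermost and 2432 CPM in the innermost bin of KO and at 1282 and 1079.9 CPM in those of WT, and its part in this was not tested. Mki67 and Cdk1 had inner over rim ratios of 0.931 and 0.912 in WT and 0.948 and 0.917 in KO. Over all spots instead of melanoma-dense ones the medians were above 0, at 0.14 and 0.10 in WT and 0.08 and 0.09 in KO.

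**Figure D4:**
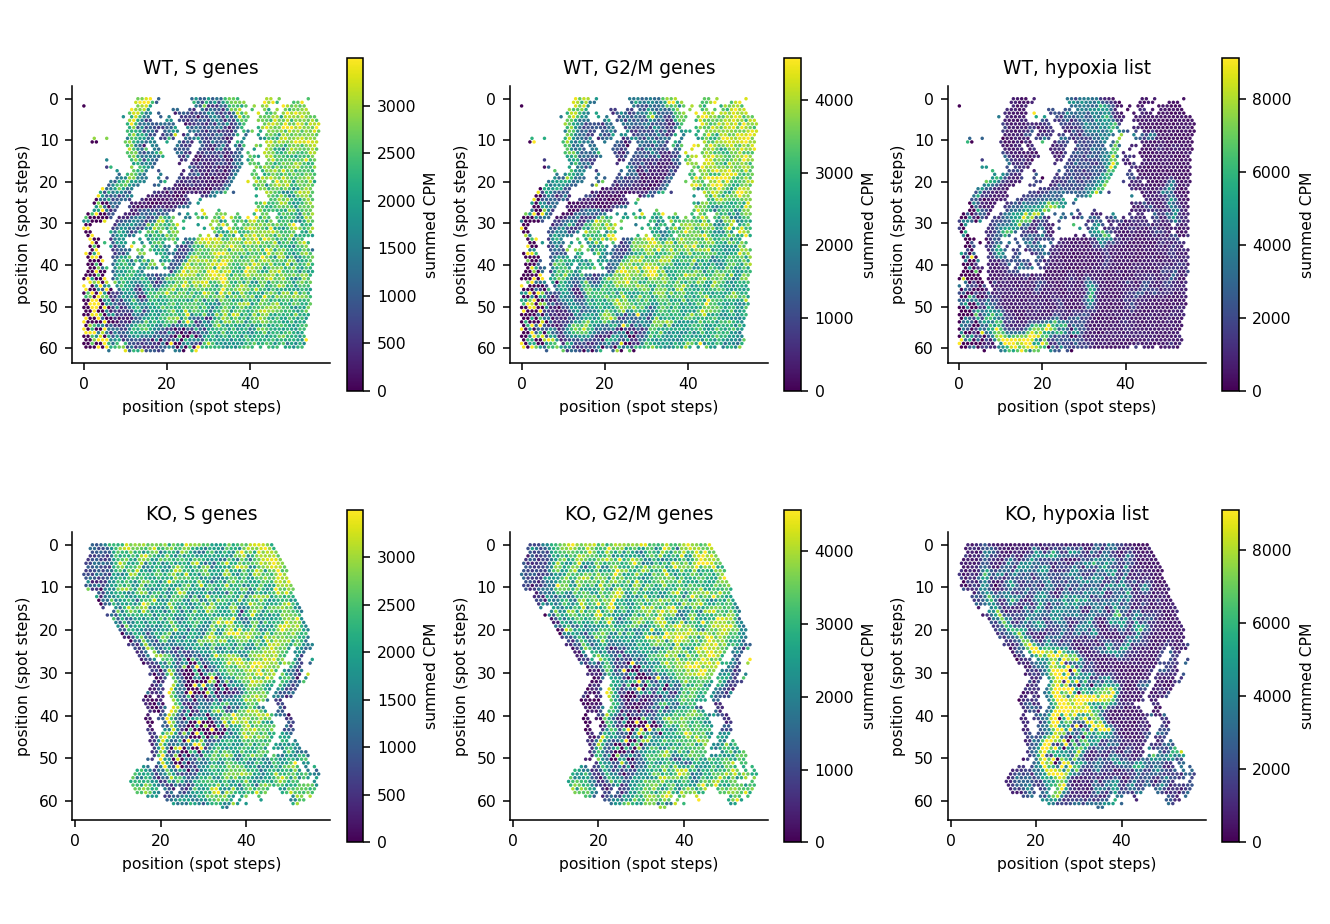
Each tissue spot at its grid position (axes in spot steps), coloured by summed CPM of the S genes, the G2/M genes and the hypoxia list, with the colour scale ending at the 98th percentile over both sections. In the KO section both phase sums are mostly low in the area of highest hypoxia list values below the centre, where single spots also reach the upper end of the scale.

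Both phase groups were higher in melanoma-dense than in remaining spots. In WT 33 of 34 members were above 1, and 21 were called higher (21.7% of all genes), with a median log2 ratio of 0.33 for S and 0.40 for G2/M genes. In KO 29 of 34 were above 1, 12 called higher (14.8% of all genes) and 1 lower (18.0% of all genes), with medians of 0.26 and 0.25. The lower one was Ccnd1, at 199.5 CPM in melanoma-dense and 325 CPM in remaining KO spots, a ratio of 0.613 (0.596 to 0.631). In WT it stood at 381 and 392 CPM, a ratio of 0.972 (0.952 to 0.993). Ube2c had a dense over remaining ratio of 1.34 (1.26 to 1.42) in WT and 0.810 (0.756 to 0.869) in KO. The spot groups differ in depth, with medians of 36219 and 17013 UMIs in WT and 42944 and 11046 in KO. Genes at large also leaned above 1 in WT, where Cdt1, with a log2 ratio of 0.15, lay at percentile 53.6 of all genes. They did so less in KO, where Mcm5, with a log2 ratio of 0.07, lay at percentile 55.1.

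Correlations over spots were computed within each section on log2(CPM + 10) of melanoma-dense spots, 1280 in WT and 1626 in KO, and are descriptions. Spots share a library, and their depth varies. The median r over pairs of members was 0.17 within S, 0.23 within G2/M and 0.19 between the groups in WT, and 0.19, 0.18 and 0.16 in KO. With every spot thinned to 10000 UMIs the 6 medians lay between 0.02 and 0.04, and with counts summed over each spot and its 6 neighbours between 0.28 and 0.48. Without thinning, the median within G2/M was above that between the groups in both sections, and the median within S was above it in KO and below it in WT. In WT, 18 of 19 G2/M members had a higher r with the other G2/M members than with the S sum, and so did 2 of 16 S members with the other S members over the G2/M sum. In KO these counts were 14 of 19 and 14 of 16.

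Mki67 and Cdk1 were positively correlated in both sections, with r of 0.63 in WT and 0.37 in KO, 0.11 and 0.15 after thinning, and 0.57 and 0.65 over neighbourhoods. The summed S and G2/M levels had r of 0.71 in WT and 0.62 in KO, and 0.32 and 0.43 after thinning. Against the hypoxia list the thinned S sum had r of -0.29 in WT and -0.47 in KO, and the thinned G2/M sum -0.29 and -0.37. Without thinning the WT values were 0.17 and 0.24, of the opposite sign, and the KO values -0.59 and -0.45. The unthinned sums also followed UMIs per spot, with r of 0.60 and 0.67 in WT and 0.35 and 0.22 in KO. Thinning did not remove this. The thinned S and G2/M sums had r of 0.19 and 0.27 in WT with UMIs per spot before thinning, and 0.28 and 0.21 in KO. Thinning left out 36 WT and 37 KO spots with fewer than 10000 UMIs.

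**Figure D5:**
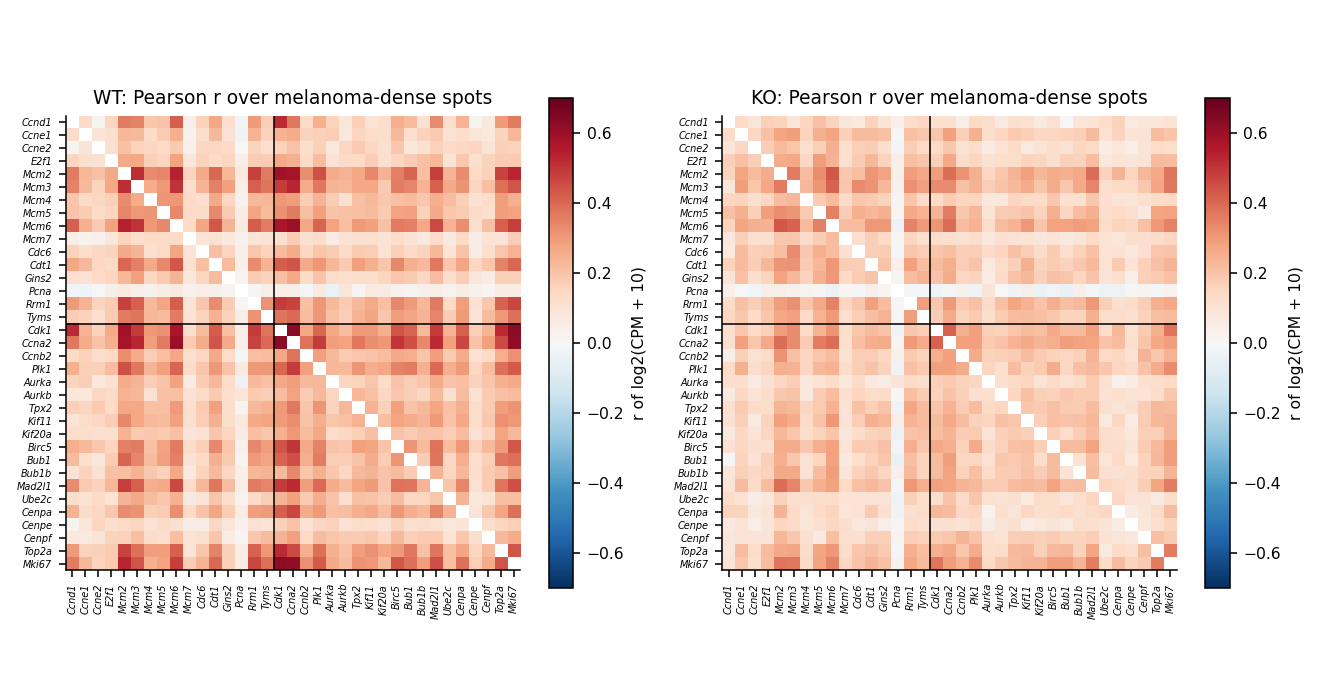
Pearson r of log2(CPM + 10) over melanoma-dense spots for each pair of measured members in WT (left) and KO (right), with lines between S and G2/M genes and the diagonal left blank. Abundant genes such as Cdk1, Ccna2, Mki67, Mcm2, Mcm3 and Mcm6 show the strongest colours in WT, where Mki67 and Cdk1 have r of 0.63, and Pcna is near 0 throughout.

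Genes most like the phase sums were histone genes. Among 9107 genes with at least 2000 UMIs, members left out, the 5 with the highest r to the S sum, taking the lower of the sections, were Hist2h2ac, Hist1h1c, Hist1h2bj, Hist1h1e and Hist1h3c, which encode core and linker histones. Their r ran from 0.52 to 0.62 in WT and from 0.49 to 0.65 in KO, beside medians over all these genes of 0.15 and 0.07. The 5 most like the G2/M sum were Hist1h3c, Hist1h2bb, Hist1h2bj, Hist1h2bk and Hist1h1d. Hist1h3c had r of 0.66 in WT and 0.58 in KO with the G2/M sum, and 0.44 and 0.48 after thinning. After thinning the 5 genes of the S sum had r of 0.20 to 0.31 in WT and 0.33 to 0.46 in KO.

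Members were among the more spatially patterned genes by Moran's I, the score of spatial clustering in the authors' deposited table. By that score 13 of 16 S members in WT and 14 in KO lay in the upper quartile of genes, as did 18 of 19 G2/M members in each section. The highest values among members in WT were 0.614 for Mcm2 and 0.607 for Cdk1 in the authors' deposited table, and in KO 0.589 for Mki67 and 0.551 for Mcm3. Cdk1 was at 0.442 in KO and Mki67 at 0.507 in WT, per the authors' deposited table, and Pcna was near 0 in both sections. Moran's I is read within 1 section and moves with the abundance of a gene.

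Other genes of the pathway were read from 3 further lists. Of 33 other S-phase genes with 500 UMIs, 4 were higher and 2 lower in KO over all spots, beside 19.5% and 20.9% of all genes, with a median log2 ratio of 0.09. Tk1, thymidine kinase, had the lowest ratio at 0.624 (0.611 to 0.637), from 253 CPM in WT and 158 CPM in KO, and Orc6, a subunit of the origin recognition complex, the highest at 1.31 (1.27 to 1.35). Dut and Lig1, the dUTPase and the ligase of replication, were among the most abundant, with ratios of 0.983 and 1.15.

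Of 50 other G2/M genes 39 had ratios above 1, 14 were higher and 2 lower (19.5% and 20.9% of all genes), with a median log2 ratio of 0.19, 0.07 in melanoma-dense spots. TMM factors lower the first of these by 0.22, to below 0. Tacc3, a spindle protein, had the highest ratio at 1.77 (1.68 to 1.86), from 2235 and 4202 UMIs, and Zwint, a kinetochore protein, the lowest at 0.785 (0.757 to 0.814). The abundant Cdca3 and Nusap1 were each 1.33-fold higher, and the condensin subunit Ncapd2 had a ratio of 1.03. Of 8 other G1 genes 2 were higher and none lower, against the same shares of all genes. The highest was Rb1, the retinoblastoma protein, at 1.48 (1.41 to 1.56), and the lowest E2f3 at 0.825. Cdk2, Cdk4 and Ccnd2, cyclin D2, had ratios of 1.02, 0.859 and 0.878.

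The other S and G2/M genes were also lower in the hypoxic quartile, and in WT most of these calls were not made at middle depth. All 28 other S genes with 500 UMIs in WT and all 31 in KO had hypoxic over oxygenated ratios below 1, of which 19 and 27 were called lower, where 7.52% of all genes in WT and 15.0% in KO were. Of the other G2/M genes 33 of 49 in WT and 30 of 50 in KO were called lower and none higher. At middle depth 7 of 22 other S and 5 of 41 other G2/M genes were called lower in WT (2.84% of all genes), and 21 of 25 and 27 of 48 in KO (12.6% of all genes). Of the 8 G1 genes none was called lower in WT and 2 were in KO, and 1 was called higher in each, where 7.57% of all genes in WT and 8.89% in KO were.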

How the data were processed

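Per the file headers, the count matrices hold UMI counts per gene and spot, whole numbers that are not normalized, made by the authors with Space Ranger 2.1.0 (Space Ranger, featureCounts and mm10 are named in the submitters' processing notes, with no role for each). Moran's I, a score for each gene and section, was taken as deposited by the authors; the counts beside it equal the matrix sums for all genes listed. Counts were summed over sets of spots, scaled to the total of the set (CPM) and compared as ratios, with 0.5 added to each count for log2 values and a 95% Clopper-Pearson interval for ratios. The fold of the Mki67 to Cdk1 ratio has a log-normal counting interval. Groups were taken from the sample labels. Because there is 1 section per genotype, no replicate test could be run, and spots were not used as replicates of a genotype. An interval set by the number of spots served only to sort alternative values of the median correlations. It treats spots of 1 library as independent, which they are not. The cell cycle members, the pathway and marker lists and the ratio for a call were chosen with earlier results of these data known. The text names all members, 5 genes of each pathway list (the 3 of largest UMI sum, then the extremes of the ratio), the 5 genes most like each phase sum, and Csnk2b. Alternatives were TMM factors (edgeR 4.0.16 in R 4.3.3; other steps in Python 3.11.15 with SciPy 1.17.1), median-of-ratios factors, other spot sets, filters, pseudocounts and thinning. The summaries were tested on simulated counts with known ratios. Promoter sequences are RefSeq's for GRCm38.p6, the assembly that mm10 denotes. Doublets have no meaning for spots, and no cell types were assigned.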

Additional observations from a re-analysis of the deposited data

Results flagged for a closer look

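Ccnd1 differed in direction between the sections within the tumour. Its hypoxic over oxygenated ratio was 1.13 in WT and 0.695 in KO, each with a counting interval on its own side of 1, and its inner over rim ratio was 1.05 in WT and 0.752 in KO. The difference between the sections was not tested, as there is 1 section per genotype. Among melanoma-dense spots of middle depth the WT hypoxia ratio of Ccnd1 was 0.965 with an interval that includes 1.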

How the results depend on the processing

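TMM and median-of-ratios factors brought the median log2 KO over WT ratio over all spots to -0.15 and -0.17 for S genes and to -0.081 and -0.094 for G2/M genes, and over melanoma-dense spots to -0.23 and -0.25 for S and -0.19 and -0.21 for G2/M genes. Both gave 2 of 34 members higher and 10 lower over all spots. Of all genes, 6.86% (TMM) and 6.58% (median of ratios) were higher there, and 38.3% and 39.6% lower. Over melanoma-dense spots 2 (TMM) or 1 (median of ratios) of 34 members were higher and 15 lower. Of all genes, 5.515% and 4.55% were higher there, and 37.97% and 41.4% lower. With a 1.5-fold limit 1 of 34 members was higher (5.37% of all genes) and 3 lower (10.965% of all genes) over all spots. Over melanoma-dense spots 0 were higher (4.304% of all genes) and 5 lower (5.41% of all genes). With every spot weighted equally the log2 difference of the Mki67 to Cdk1 ratio was 1.01 over all spots, against 1.11, and 1.09 over melanoma-dense spots, where the G2/M median was 0.10.

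Leaving out each quadrant in turn gave medians over all spots of 0.038 to 0.11 for S and 0.052 to 0.17 for G2/M genes, a difference between them of -0.061 to -0.003, and a log2 Mki67 to Cdk1 difference of 1.07 to 1.16. Over melanoma-dense spots these were -0.084 to 0.081, -0.081 to 0.12, -0.037 to 0.0048 and 1.02 to 1.08. The dense medians of both phases thus lay on either side of 0. With a stricter melanoma share they were -0.083 for S and -0.077 for G2/M genes, and in spots poor in other cell types the S median was -0.046. In the least hypoxic quartile the S median was 0.076, the S minus G2/M difference 0.076 and the log2 Mki67 to Cdk1 difference 0.96. In the most hypoxic quartile the medians were -0.14 and -0.13 and that difference 1.13.

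Over all spots the hypoxia medians were -0.80 and -0.85 in WT and -0.65 for S genes in KO, and at middle depth the WT G2/M median was -0.14. The inner over rim medians over all spots were 0.14 and 0.10 in WT and 0.076 and 0.089 in KO, and without the frame as an edge the KO S median was 0.055. Median correlations within S, within G2/M and between them were 0.021, 0.041 and 0.019 in WT and 0.031, 0.039 and 0.0302 in KO after thinning. Over neighbourhoods they were 0.39, 0.48 and 0.44 in WT and 0.30, 0.34 and 0.28 in KO, and over all spots 0.44, 0.47 and 0.45 in WT and 0.44, 0.48 and 0.46 in KO. With a pseudocount of 100 CPM the WT values were 0.11, 0.18 and 0.13. The cause of these shifts was not tested. Of the alternative values of these summaries, 70 were sorted as moved and 98 as unchanged. For ratios of single members these counts were 368 and 507. Unchanged meant within the counting interval of the main value, or within 1.5-fold for counts of members. For correlations it meant within an interval set by the number of spots. Quartile comparisons, middle depth, remaining spots and gene span were chosen after the data were seen. No paired analysis was possible because there is 1 section per genotype.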

Other observations

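Over genes, the log2 KO over WT ratio had a Spearman rho with the genomic span of the gene of 0.14 over 10910 genes, 0.45 over the 34 members and 0.28 over 91 other cell cycle genes. This relation was looked at after the data were seen, and genes are not independent replicates.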
